A study of Mus musculus with 15 samples.

Results

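The comparison described here set Ly6C+ monocytes of the murine spleen against CD4+ dendritic cells (DCs) of the same organ, with 3 libraries of each, 6 of the 15 libraries of the series. The genes compared were all those with more than 1 CPM (reads of a gene scaled to the total of its library) in at least 3 of these 6 libraries, which kept 12711 of 38924 gene identifiers. The series profiled RNA of mononuclear phagocytes (MPs) from the spleen and from lymph nodes that drain the lung, and its other 9 libraries are splenic CD8+ DCs, lymph node CD103+ DCs and lymph node CD11b+ DCs. All mice were naïve female C57BL/6 animals with no transgene, given in the labels as 6 to 8 weeks old. Each library pooled the sorted cells of 5 mice, so a replicate is a pool and the spread between single animals was not measured. Splenic monocytes were enriched with CD11b beads and sorted as Ly6C+ CD11b+ cells, and splenic DCs were enriched with CD11c beads and sorted as CD11c+ MHCII+ CD4+ cells. Whether the pools of the 2 subtypes came from the same animals is not given in the sources used here.

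Ly6C+ monocytes are short-lived cells that form in the bone marrow, leave it through the chemokine receptor CCR2, and are held in reserve in the spleen, from where they can enter tissue and take up material. CD4+ DCs, also called DC2, are resident in the spleen, develop under the receptor FLT3, depend on Notch signals for their place in the marginal zone, and present peptides on MHC class II to CD4+ T cells. Both carry CD11b on their surface, so the sort told them apart by their other markers.

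Total counts on genes ran from 4880322 to 10233914 in the monocyte libraries, each the sum of 2 sequencing runs, and from 5492796 to 7139549 in the CD4+ DC libraries, each of 1 run. Replicates of the monocytes differed from each other by 0.482 to 0.519 (root mean square difference of log2 CPM) and replicates of the CD4+ DCs by 0.735 to 0.906, whereas a monocyte library differed from a CD4+ DC library by 1.71 to 1.93. CD4+ DC replicate 2 lay farthest from the other 2 libraries of its group. The top 10 genes held a smaller share of the counts in monocytes, 9.05% to 10.3%, than in CD4+ DCs, 14.1% to 19.7%. The TMM scaling factor of CD4+ DC replicate 2 was the lowest of the 6, at 0.880. These are bulk libraries, so fewer cells expressing a gene and less RNA of it per cell cannot be told apart. In what follows the 3 values given for a group are its replicates 1, 2 and 3 in CPM scaled by TMM, and where values are set against each other those of monocytes come first. Log2 fold changes are monocytes over CD4+ DCs. Their standard error (SE) is approximate, taken as the absolute log2 fold change over the square root of the F statistic of the test named next. Adjusted p values are from edgeR's quasi-likelihood test with Benjamini-Hochberg adjustment over all 12711 genes, and "past the threshold" means an adjusted p below 0.05.

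The genes of the sorting markers followed the sort, which chose the cells and so is not a result. Ly6c2 stood at 758, 705 and 1011 CPM in monocytes and 0.547, 0.532 and 0.702 CPM in CD4+ DCs, and Ly6c1 at 98.5, 95.2 and 151 CPM in monocytes and 0.410, 0 and 0.527 CPM in CD4+ DCs. Only uniquely mapped reads had been counted, so that near-identical genes such as these 2, or Lyz1 and Lyz2, may have lost or exchanged reads. Cd4 was at 156, 96.9 and 206 CPM in CD4+ DCs and at most 0.392 CPM in monocytes, whereas Cd8a did not exceed 2.87 CPM in any of the 6 libraries and stayed below the filter. Itgam, which encodes CD11b, was at 1071, 1051 and 1172 CPM in monocytes and 276, 446 and 371 CPM in CD4+ DCs. Itgax, which encodes CD11c, was at 57.5, 69.5 and 57.4 CPM in monocytes and 974, 841 and 879.6 CPM in CD4+ DCs. CD11b mRNA was thus present in both groups, with no overlap between them. Ptprc, the pan-leukocyte marker CD45, overlapped, at 2028, 2118 and 2030.2 CPM in monocytes and 2277, 1721 and 2089.6 CPM in CD4+ DCs.

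Nearly as many genes separated these cells as did not, 49.4% of those measured. Of the 12711 genes, 2964 (23.3%) were higher in monocytes and 3315 (26.1%) were lower, and the median log2 fold change over all genes was -0.04. With a log2 difference of at least 1 also required, 2191 genes (17.2%) were higher and 2479 (19.5%) lower. At a log2 difference of at least 3 the count was 524 genes higher and 806 lower. Libraries of the 2 groups did not overlap for 7664 genes (60.3%), of which 3840 (30.2%) lay above in monocytes and 3824 (30.1%) below. Among the genes called higher, 143 had at most 3 counts in the 3 CD4+ DC libraries together, and among those called lower, 250 had at most 3 counts in the 3 monocyte libraries.

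**Figure D1:**
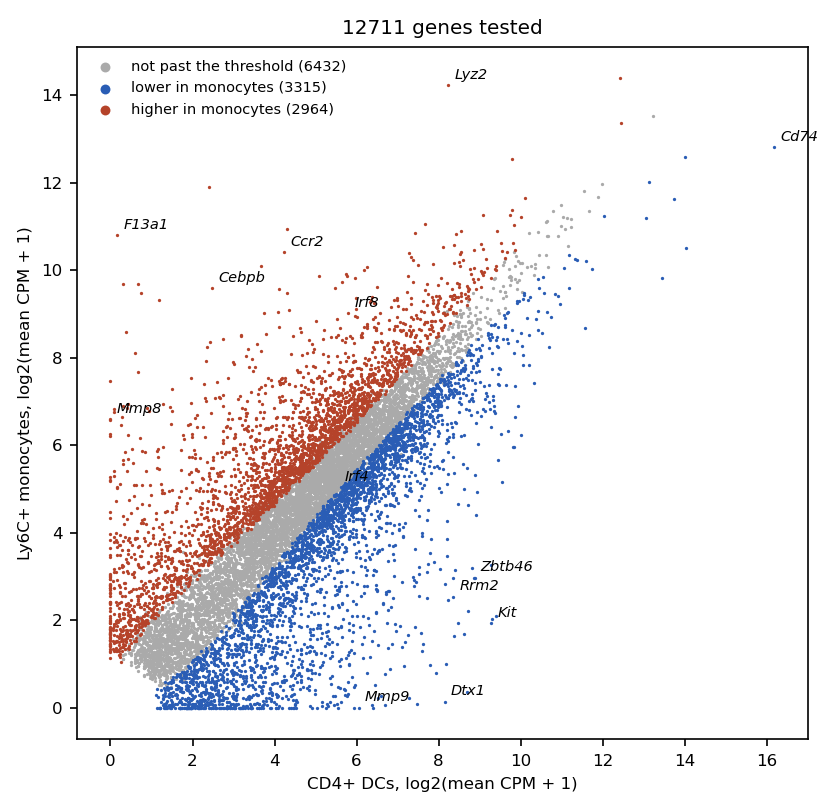
Mean level of each of the 12711 genes tested in CD4+ DCs (horizontal axis) and in Ly6C+ monocytes (vertical axis), each as log2(mean CPM + 1) of 3 libraries. Red points are the 2964 genes higher in monocytes, blue points the 3315 genes lower and grey points those not past the adjusted p of 0.05; genes on the axes, such as Mmp8 and Mmp9, had no count in 1 of the groups.

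By transcript abundance, compared between genes as the deposited TPM (mean ± SD of 3 libraries), the genes with the largest gain in monocytes were Lyz2, Gm42418, Mir6236, Psap and Ifitm3. Lyz2, lysozyme M of monocytes and macrophages, was at 39274 ± 1223 TPM in monocytes and 575 ± 247 TPM in CD4+ DCs. Psap, the precursor of the lysosomal saposins, was at 5639.9 ± 1641 against 785 ± 400.4 TPM. Ifitm3, a membrane protein that restricts virus entry, was at 5166 ± 84.9 against 557 ± 351 TPM. Gm42418 and Mir6236 are loci at which ribosomal RNA fragments are commonly counted, and 36.9% of the exon length of Gm42418 overlaps another gene.

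In the other direction the 5 genes with the largest loss of TPM were Cd74, H2-Ab1, Tmsb4x, H2-Aa and H2-Eb1. Cd74, the invariant chain that escorts MHC class II, was at 121950 ± 35601 TPM in CD4+ DCs and 13129 ± 1386 TPM in monocytes. The class II genes among these 5 encode the protein by which the DCs were sorted. Tmsb4x, the actin-binding thymosin beta 4, was not part of the sort and was at 28104 ± 4833 TPM in CD4+ DCs against 11610 ± 234 TPM in monocytes.

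By fold, the 10 genes furthest above in monocytes, among those with a mean of at least 10 CPM and no overlap, were F13a1, Arhgef37, Mmp8, Apol7d, Trem2, Sgms2, Chil3, S100a9, Rhou and Rab44. F13a1, the A chain of coagulation factor XIII, was at 1800.4, 1589.8 and 1947 CPM in monocytes and 0, 0 and 0.351 CPM in CD4+ DCs, a ratio of 16586 (95% Poisson interval 4592 to 136960) over 2 counts in CD4+ DCs. Arhgef37, a guanine nucleotide exchange factor, had no count in CD4+ DCs and 185, 162 and 179 CPM in monocytes, at least 1089.9-fold higher, where a floor of 3 counts over the group stands in for 0. Trem2, the lipid-sensing receptor of microglia and macrophages, was likewise at 0 in CD4+ DCs and at 74.3, 75.6 and 76.4 CPM in monocytes, at least 469-fold higher. Every monocyte library held these genes, and no CD4+ DC library held Arhgef37 or Trem2. Rhou, a small GTPase, was at 0 in CD4+ DCs as well, against 31.7, 33.3 and 43.02 CPM. Sgms2, a sphingomyelin synthase, was at 79.2, 33.4 and 105 CPM in monocytes. Apol7d lies at chr1:71652837-71662843 of mm10, where 12.6% of its exon length is shared with Fn1, and since counting took no account of strand its 91.7, 73.5 and 116 CPM cannot be told apart from reads of Fn1.

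Furthest below in monocytes were 9530059O14Rik, Mmp9, Scn3a, Ryr3, Dtx1, Cdcp1, Cdh17, Ncald, Ctnnd2 and Tmod2, several of them better known from nerve, muscle or epithelium. The transcript 9530059O14Rik, at chr9:122572497-122679596, had no count in monocytes and 75.9, 92.96 and 81.1 CPM in CD4+ DCs, at least 639-fold higher there. Scn3a, a voltage-gated sodium channel of neurons, was at 0 against 73.4, 44.4 and 61.8 CPM. Ryr3, an intracellular calcium release channel, was at 0.198, 0 and 0 CPM against 175, 242 and 116 CPM. These transcripts were found in each of the 3 pools of CD4+ DCs. Cdh17, a cadherin of intestinal epithelium, was at 0 against 24.2, 43.5 and 43.9 CPM, and Ctnnd2, a catenin of the brain, reached 114, 105 and 86.4 CPM in CD4+ DCs with 1 count in the monocytes. Cdcp1, Ncald and Tmod2 had no count in monocytes either. None of the 10 overlapped between groups, as the rule that named them requires.

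Groups of genes with a known role were then read as lists, by the members that passed the filter on low counts. The filter kept every member of the lists of identity genes, transcription factors, MHC class II, Toll-like receptors, the cell cycle, interferon-stimulated genes and glycolysis. It kept 14 of 16 genes for costimulation, 22 of 24 for attractant receptors, 25 of 26 for cytokine receptors, 27 of 31 for cytokines, 8 of 10 Fc receptors, 15 of 20 for complement, 18 of 20 C-type lectins, 19 of 21 granule genes, 21 of 24 for adhesion and 16 of 18 for Notch. A member that passed only through the group where it is high had to differ, so the counts over lists describe these members and no more. Each is to be read against the 23.3% of all genes called higher in monocytes and the 26.1% called lower.

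Of 24 monocyte identity genes, 21 were higher in monocytes, beside 23.3% of all genes, 2 were lower and 1 was not past the threshold, with a median log2 fold change of 5.64. Ccr2, the receptor by which monocytes leave the marrow, was at 1297, 1416 and 1388 CPM in monocytes and 21.1, 14.2 and 18.1 CPM in CD4+ DCs (log2 fold change 6.26, SE 0.26, adjusted p = 4.58e-09). Csf1r, the receptor for M-CSF, stood at 2441, 2530.1 and 2409 CPM in monocytes and 432, 621 and 575 CPM in CD4+ DCs, 4.53-fold higher in monocytes. The groups were far apart for both genes, but Csf1r was also plainly expressed in every CD4+ DC library. Fn1 (fibronectin) was at 4221, 2893 and 4423 CPM against 5.604, 7.27 and 0 CPM. Chil3 (the chitinase-like protein Ym1) was at 952, 669.6 and 847 CPM against 0, 0.710 and 0 CPM, and Hp (haptoglobin) at 596, 796 and 759 CPM against 0.273, 1.77 and 0 CPM. These 3 secreted products were close to absent from CD4+ DCs. Fcgr1, the high-affinity IgG receptor CD64 used to tell monocyte-derived cells from DCs, was at 116, 139 and 146 CPM in monocytes and 4.101, 3.37 and 8.78 CPM in CD4+ DCs. Smaller differences were seen for Ms4a4c, at 547, 573 and 619 CPM against 365, 374 and 213 CPM (log2 fold change 0.87, SE 0.24, adjusted p = 0.00839), and S100a6, at 474, 440.5 and 439 CPM against 284, 224 and 117 CPM (log2 fold change 1.11, SE 0.28, adjusted p = 0.00507). Ms4a4c was not past the threshold in the fit of all 15 libraries (0.94, adjusted p = 0.071).

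On that list 3 genes did not follow its direction. Adgre1, which encodes F4/80, was lower in monocytes, at 411, 372 and 460.2 CPM against 569, 911 and 610.2 CPM (log2 fold change -0.75, SE 0.23, adjusted p = 0.0158). S100a4, a calcium-binding protein of motile cells, was lower too, at 265, 278 and 291 CPM against 368, 531 and 360.0 CPM (log2 fold change -0.59, SE 0.21, adjusted p = 0.0333). Libraries of the groups did not overlap for these 2 genes, but the differences were small. Adgre1 was not past the threshold in the fit of all 15 libraries, without monocyte replicate 1 or without monocyte replicate 2, and S100a4 was not past it in that fit (-0.52, adjusted p = 0.258), with limma on log2(TPM + 1), with monocyte run 2 alone, with a replicate block, without any 1 of the monocyte libraries or without CD4+ DC replicate 2. Ly86 (MD-1) overlapped, at 414, 453 and 394 CPM against 273, 389 and 539 CPM. Within the S100 family the directions thus differed, since S100a8, at 36.1, 36.6 and 52.8 CPM, and S100a9, at 29.5, 36.8 and 47.2 CPM, were found in monocytes against 1 count in all in CD4+ DCs.

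**Figure D2:**
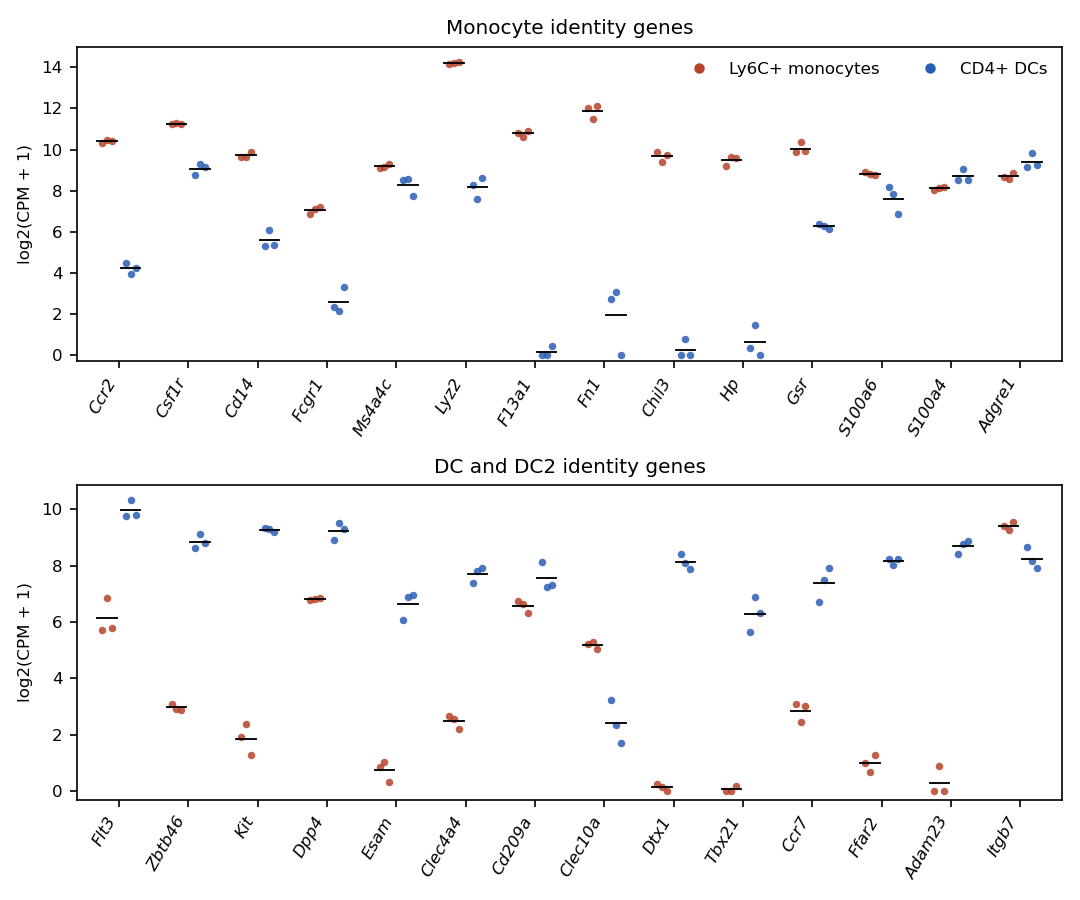
Level of 14 monocyte identity genes (top) and 14 DC and DC2 identity genes (bottom) in each library, as log2(CPM + 1), with red points for the 3 monocyte libraries, blue points for the 3 CD4+ DC libraries and a bar at the mean of 3. Adgre1 and S100a4 among the monocyte genes and Clec10a and Itgb7 among the DC genes lie in the direction opposite to the rest of their panel.

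Of 20 DC and DC2 identity genes, 18 were lower in monocytes, beside 26.1% of all genes, and 2 were higher, with a median log2 fold change of -5.76 (-5.73 with the 3 members of at most 3 counts in monocytes set to their bound or count ratio). Flt3, the growth factor receptor on which DCs depend, was at 51.3, 116 and 54.8 CPM in monocytes and 877, 1293 and 896 CPM in CD4+ DCs (log2 fold change -3.78, SE 0.34, adjusted p = 1.37e-06). Kit, the stem cell factor receptor, was at 2.77, 4.26 and 1.44 CPM in monocytes and 641, 635 and 594 CPM in CD4+ DCs, a 221-fold difference. Zbtb46, the transcription factor that marks the classical DC lineage, stood at 7.53, 6.59 and 6.41 CPM in monocytes and 392, 557 and 446 CPM in CD4+ DCs. Flt3 mRNA was thus still measured in each monocyte library, whereas Kit and Zbtb46 did not exceed 7.53 CPM there. Of this list, Esam, Clec4a4 and Tbx21, described for the Notch-dependent, ESAM-expressing DC2 of the spleen, were lower in monocytes as well. Esam itself, an adhesion molecule, was at 0.792, 1.07 and 0.262 CPM against 66.6, 119 and 125 CPM (log2 fold change -7.11, SE 0.43, adjusted p = 4.63e-08). Clec4a4, the lectin DCIR2, was at 5.35, 4.94 and 3.66 CPM against 165, 223 and 243 CPM (log2 fold change -5.50, SE 0.27, adjusted p = 1.12e-08). Tbx21, the transcription factor T-bet, had 1 count in monocytes against 49.8, 117 and 78.3 CPM. On the same list, the receptor genes Ccr7 and Gpr183 were lower in monocytes too. Ccr7, which guides DCs to T cells, was at 7.53, 4.46 and 7.06 CPM against 104, 180.1 and 241 CPM, and Gpr183 (EBI2), which positions DC2 at the bridging channels, was at 37.6, 40.4 and 35.7 CPM against 131, 125 and 118 CPM. Ffar2, a receptor for short-chain fatty acids, was at 0.991, 0.581 and 1.44 CPM against 304, 258 and 305 CPM.

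Some lectins often used to identify DC2 or monocyte-derived DCs behaved differently from the rest of that list. Cd209a was found in both cells, at 106, 97.8 and 79.2 CPM in monocytes and 279, 152 and 158 CPM in CD4+ DCs, 2.09-fold lower in monocytes. Clec10a was higher in monocytes, at 36.5, 38.4 and 31.9 CPM against 8.34, 4.08 and 2.28 CPM (log2 fold change 2.83, SE 0.39, adjusted p = 6.17e-05). So was Itgb7, the beta chain of gut-homing integrins, at 679, 609.6 and 749 CPM against 404, 288 and 242 CPM (log2 fold change 1.12, SE 0.23, adjusted p = 0.00138). No library of either group overlapped the other for any of these 3 genes.

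Transcription factors tied to monocytes were mostly higher in monocytes, 14 of 18, with 3 lower and 1 not past the threshold (median log2 fold change 1.29). The furthest was Cebpb, which encodes C/EBPβ, a factor on which the survival and maturation of monocytes depend, at 763, 742 and 796 CPM in monocytes and 4.65, 3.02 and 6.15 CPM in CD4+ DCs (log2 fold change 7.37, SE 0.30, adjusted p = 4.05e-09). Part of its exon length (20.7%) overlaps Tmem189, from which reads there cannot be told apart. Related factors were less far apart, with Cebpa at 40.6, 38.5 and 36.7 CPM against 7.52, 4.79 and 4.04 CPM and Cebpd at 76.3, 96.6 and 78.7 CPM against 15.6, 15.8 and 10.5 CPM. Klf2, a factor of quiescent cells, was at 617, 465 and 569 CPM against 46.9, 24.1 and 116 CPM. Klf4, needed for Ly6C+ monocytes, was at 120.5, 99.6 and 103 CPM against 57.96, 29.98 and 37.9 CPM (log2 fold change 1.36, SE 0.25, adjusted p = 0.000723). None of these factors was absent from CD4+ DCs, and none overlapped between groups. Spi1, the myeloid master factor PU.1, was 2.21-fold higher in monocytes, at 479, 547 and 500.4 CPM against 215, 193 and 283 CPM.

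Immediate early genes on that list went in both directions. Egr2 was lower in monocytes, at 1.58, 4.46 and 1.6999 CPM against 63.7, 56.2 and 82.01 CPM (log2 fold change -4.61, SE 0.38, adjusted p = 6.69e-07), and Egr1 was lower as well, at 31.3, 49.02 and 39.5 CPM against 213, 203 and 178 CPM. Fos was higher, at 1525, 1514 and 1636 CPM against 442, 363 and 775 CPM. Tissue had been digested and the cells sorted before lysis, and the part of that handling in Egr1, Egr2 and Fos was not tested.

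Among 20 transcription factors tied to DCs, 10 were lower in monocytes, beside 26.1% of all genes, 4 were higher, a share near the 23.3% of all genes, and 6 were not past the threshold (median log2 fold change -0.69). Besides Zbtb46 and Tbx21, Zeb1 was among those furthest below, at 4.36, 2.91 and 3.14 CPM against 60.7, 136 and 67.8 CPM (log2 fold change -4.69, SE 0.37, adjusted p = 4.61e-07). Spib was at 1.39, 1.26 and 1.44 CPM against 28.7, 35.1 and 29.3 CPM (log2 fold change -4.50, SE 0.33, adjusted p = 2.31e-07). Relb, the NF-κB subunit on which splenic DC2 depend, was at 136, 106 and 111 CPM against 686, 1336 and 919 CPM (log2 fold change -3.06, SE 0.27, adjusted p = 1.29e-06). None of these 3 overlapped between groups. Irf8 and Irf4, paralogous factors that are balanced against each other in DC1 and DC2, were called differently, and the difference between them was not tested. Irf8, needed for DC1 and for monocyte progenitors, was 9.54-fold higher in monocytes, at 455, 549.7 and 559 CPM against 72.6, 47.5 and 43.7 CPM (log2 fold change 3.25, SE 0.25, adjusted p = 3.42e-07). Irf4, the factor of DC2, overlapped between groups, at 35.5, 23.2 and 37.5 CPM against 37.5, 37.4 and 63.7 CPM (log2 fold change -0.53, SE 0.28, adjusted p = 0.139). Zeb2 was higher in monocytes, at 694, 482 and 661 CPM against 257, 320.04 and 180.0 CPM, opposite to its paralog Zeb1, and Nfil3 was higher as well, at 185, 275 and 199 CPM against 11.5, 11.9 and 8.08 CPM (log2 fold change 4.38, SE 0.26, adjusted p = 4.63e-08). Id2, the inhibitor of E proteins that DCs express, was lower in monocytes at 104, 129 and 88.1 CPM against 488, 381 and 215 CPM, while Tcf4, the E protein of plasmacytoid DCs that Id2 opposes, overlapped at 77.9, 91.2 and 93.2 CPM against 79.6, 98.3 and 89.03 CPM.

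MHC class II genes were lower in monocytes, as goes with a sort on MHCII, but the list did not move as 1 block. Of 15 members, 9 were lower, 1 was higher and 5 were not past the threshold (median log2 fold change -3.23). The classical chains were 12.4-fold (H2-Aa), 11.5-fold (H2-Ab1) and 7.52-fold (H2-Eb1) lower. Ciita, the coactivator that drives them, was at 92.3, 119 and 83.8 CPM against 940.05, 985 and 845 CPM (log2 fold change -3.23, SE 0.23, adjusted p = 1.74e-07). The chains of H2-O, which tempers the loading of peptides, were further apart. H2-Oa was at 1.39, 2.23 and 3.01 CPM against 400.2, 299 and 481 CPM (log2 fold change -7.42, SE 0.33, adjusted p = 6.05e-09), and H2-Ob at 3.37, 3.003 and 4.45 CPM against 387, 572 and 300.3 CPM (log2 fold change -6.86, SE 0.33, adjusted p = 9.76e-09).

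Genes of H2-DM, which does the loading, were less clear. H2-DMa overlapped between groups, at 246, 252 and 231 CPM against 418, 210.1 and 522 CPM (log2 fold change -0.66, SE 0.28, adjusted p = 0.0681) but was past the threshold without CD4+ DC replicate 2 (-0.93, adjusted p = 0.00131), with run 2 alone of the monocytes (-0.71, adjusted p = 0.048) and with no filter on low counts (-0.62, adjusted p = 0.0256). H2-DMb1 overlapped as well, at 139, 146 and 129 CPM against 133, 50.7 and 212 CPM. H2-DMb2, which encodes an alternative beta chain, did not, at 9.91, 8.52 and 8.89 CPM against 243, 106 and 358 CPM (log2 fold change -4.70, SE 0.40, adjusted p = 8.1e-07). Replicate 2 of the CD4+ DCs was the lowest of its group for these 3 genes and for H2-Eb1, and the highest for Cd74, H2-Aa and H2-Ab1. Enzymes that prepare peptides for class II were read beside them. The protease Ctss overlapped at 2316, 2482 and 2302 CPM against 1720.4, 2729 and 1824 CPM, and was past the threshold at 0.44 (adjusted p = 0.0484) without CD4+ DC replicate 2. The reductase Ifi30 overlapped at 156, 217 and 185 CPM against 312, 248 and 199.8 CPM, and was past it at -0.57 (adjusted p = 0.0334) without CD4+ DC replicate 3. The protease Lgmn was higher in monocytes, at 127, 186 and 158 CPM against 95.1, 41.5 and 61.5 CPM (log2 fold change 1.25, SE 0.28, adjusted p = 0.00265).

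Proximal promoters of this list are shown because its members share letters of an element there. Class II promoters are known for a Y box, a reversed CCAAT sequence, a short way from the start site. The letters GATTGG were searched on both strands in the RefSeq promoters of GRCm38.p6, which run from 250 bases before to 50 after a start site. All 6 of the class II list members that were lower and had an entry (H2-Aa, H2-Eb1, H2-Eb2, H2-DMb2, H2-Oa and H2-Ob) held it, beside 16.1% of all 32851 promoters. Of 4 members with an entry that were not called, H2-DMa and H2-DMb1 held it as well. A match of letters is a description and not evidence of binding. Of the promoters printed, the first 4 are of genes lower in monocytes and the last of a gene that overlapped, with the match in capitals. They lie at chr17:34287774-34288073, minus strand (H2-Aa), chr17:34305617-34305916, plus strand (H2-Eb1), chr17:34092129-34092428, plus strand (H2-Oa), chr17:34238655-34238954, plus strand (H2-Ob) and chr17:34152941-34153240, plus strand (H2-DMb1), and H2-Eb1 holds the letters once on each strand.
H2-Aa: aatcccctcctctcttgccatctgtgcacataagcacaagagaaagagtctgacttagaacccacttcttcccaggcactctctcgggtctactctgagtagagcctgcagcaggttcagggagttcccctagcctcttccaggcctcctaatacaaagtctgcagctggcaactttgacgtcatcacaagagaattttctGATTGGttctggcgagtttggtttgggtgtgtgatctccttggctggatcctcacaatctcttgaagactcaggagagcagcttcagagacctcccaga
H2-Eb1: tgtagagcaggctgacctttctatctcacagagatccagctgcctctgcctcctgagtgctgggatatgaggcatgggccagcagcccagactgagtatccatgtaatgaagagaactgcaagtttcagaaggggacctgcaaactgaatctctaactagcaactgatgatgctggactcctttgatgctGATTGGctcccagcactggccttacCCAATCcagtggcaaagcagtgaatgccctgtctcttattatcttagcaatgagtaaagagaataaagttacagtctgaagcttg
H2-Oa: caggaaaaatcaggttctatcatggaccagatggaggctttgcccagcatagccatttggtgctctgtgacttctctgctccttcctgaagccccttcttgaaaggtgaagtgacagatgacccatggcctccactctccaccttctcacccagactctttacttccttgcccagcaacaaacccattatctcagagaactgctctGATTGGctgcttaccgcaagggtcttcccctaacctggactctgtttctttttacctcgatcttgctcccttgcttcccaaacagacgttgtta
H2-Ob: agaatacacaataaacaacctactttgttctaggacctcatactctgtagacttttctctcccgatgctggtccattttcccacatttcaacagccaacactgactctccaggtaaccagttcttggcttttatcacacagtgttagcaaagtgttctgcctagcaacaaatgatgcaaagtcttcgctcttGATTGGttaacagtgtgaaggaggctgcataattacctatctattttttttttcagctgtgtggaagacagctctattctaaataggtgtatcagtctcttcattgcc
H2-DMb1: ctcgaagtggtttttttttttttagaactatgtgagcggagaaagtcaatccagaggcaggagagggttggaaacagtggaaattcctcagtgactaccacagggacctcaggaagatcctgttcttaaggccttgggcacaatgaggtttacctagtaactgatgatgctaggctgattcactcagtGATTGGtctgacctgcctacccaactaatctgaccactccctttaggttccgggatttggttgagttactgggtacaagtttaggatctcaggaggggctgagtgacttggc

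Costimulatory and coinhibitory genes were lower in monocytes for 11 of 14 members, with 1 higher and 2 not past the threshold (median log2 fold change -1.70). Icosl, the ligand of ICOS on T cells, was at 44.6, 42.8 and 40.4 CPM against 276, 269 and 284 CPM (log2 fold change -2.70, SE 0.20, adjusted p = 2.14e-07). Cd274, which encodes PD-L1, was at 47.1, 43.5 and 39.8 CPM against 202, 304 and 263 CPM, and Pdcd1lg2, which encodes PD-L2, at 2.38, 2.32 and 2.22 CPM against 27.2, 33.2 and 23.4 CPM (log2 fold change -3.59, SE 0.32, adjusted p = 1.36e-06). Both ligands of PD-1 were thus lower in monocytes in every library. Of the ligands of CD28, Cd80 was lower in monocytes, at 12.9, 11.04 and 11.8 CPM against 34.9, 51.1 and 33.02 CPM. Cd86 overlapped, at 71.3, 53.2 and 68.7 CPM against 96.8, 67.4 and 116 CPM (log2 fold change -0.54, SE 0.24, adjusted p = 0.0774), and was past the threshold, at -0.71 (adjusted p = 0.0129), without CD4+ DC replicate 2. The 1 member higher in monocytes was Vsir, the checkpoint VISTA, at 500.01, 572 and 582 CPM against 109, 146 and 165 CPM (log2 fold change 1.98, SE 0.22, adjusted p = 8.97e-06).

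Of 20 Toll-like receptors and cofactors, 8 were higher in monocytes, beside 23.3% of all genes, 5 were lower, a share near the 26.1% of all genes, and 7 were not past the threshold (median log2 fold change 0.14). Tlr4, the receptor for lipopolysaccharide, was at 19.6, 30.7 and 30.3 CPM against 8.75, 3.02 and 8.25 CPM. Its cofactors were higher too, Ly96 (MD-2) at 14.5, 11.04 and 12.8 CPM against 1.64, 2.31 and 2.63 CPM and Cd14 at 799.7, 797 and 932 CPM against 38.3, 67.8 and 39.9 CPM. Of the endosomal receptors for RNA, Tlr7, Tlr8 and Tlr13 were higher in monocytes and Tlr3 was lower. Tlr8 was at 44.97, 65 and 46.8 CPM against 1.91, 2.66 and 4.39 CPM (log2 fold change 4.14, SE 0.35, adjusted p = 7.37e-07), and Tlr3 at 1.78, 1.55 and 4.84 CPM against 11.6, 7.27 and 10.01 CPM. The partners with which TLR2 pairs went in opposite directions: Tlr6 was at 34.1, 32.7 and 32.04 CPM against 9.98, 3.73 and 15.8 CPM (log2 fold change 1.74, SE 0.39, adjusted p = 0.00266) and Tlr1 at 46.95, 44.9 and 55.4 CPM against 154, 206 and 171 CPM (log2 fold change -1.85, SE 0.21, adjusted p = 1.12e-05). Tlr11, which senses profilin, was lower in monocytes, at 6.74, 12.5 and 5.36 CPM against 32.7, 48.3 and 27.7 CPM. Of the shared machinery, Unc93b1 overlapped, at 1747, 1734 and 1837 CPM against 1507, 2328 and 1946 CPM.

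Among C-type lectins, 7 of 18 were higher in monocytes, 7 lower and 4 not past the threshold, beside 23.3% higher and 26.1% lower over all genes. Clec7a (Dectin-1), a receptor for fungal glucan, was at 366, 325 and 364 CPM against 43.1, 41.7 and 73.6 CPM (log2 fold change 2.74, SE 0.25, adjusted p = 1.79e-06). Clec4e (Mincle), a receptor for mycobacterial glycolipid, was at 118, 114 and 117 CPM against 0.410, 4.61 and 0.176 CPM (log2 fold change 6.12, SE 0.61, adjusted p = 3.39e-06). Clec7a was measured in every CD4+ DC library at a lower level, whereas Clec4e exceeded 0.410 CPM there only in replicate 2. Ly75 (DEC-205) was lower in monocytes, at 2.38, 1.55 and 2.62 CPM against 32.3, 20.8 and 33.02 CPM, and so was Mrc1 (the mannose receptor), at 17.04, 11.04 and 12.2 CPM against 44.6, 57.8 and 63.4 CPM.

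Fc receptors were higher in monocytes for 4 of 8 members and lower for 1. Fcgr3 was at 254, 339 and 253 CPM against 13.3, 11.5 and 10.2 CPM and the inhibitory Fcgr2b at 303, 521 and 311 CPM against 100.3, 77.7 and 30.4 CPM. The shared signalling chain Fcer1g was at 1178, 1276 and 1163 CPM against 405, 318 and 426 CPM. Fcrl1, a receptor-like gene first known from B cells, was the 1 member that was lower, at 11.5, 11.4 and 8.63 CPM against 85.4, 82.8 and 99.4 CPM, and Fcgr4 overlapped at 14.1, 39.04 and 24.2 CPM against 19.3, 21.8 and 22.8 CPM.

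Complement genes were higher in monocytes for 8 of 15 members and lower for 5, beside 23.3% and 26.1% of all genes. These counts include Itgam (higher) and Itgax (lower), which are genes of the sort and so not a result. C3, the central component, was at 908, 862 and 1023 CPM against 35.95, 32.8 and 30.6 CPM (log2 fold change 4.81, SE 0.23, adjusted p = 9.43e-09). Cfp (properdin), which sustains the alternative pathway, was lower in monocytes, at 148, 136 and 203 CPM against 781, 968 and 1043 CPM (log2 fold change -2.52, SE 0.23, adjusted p = 2.01e-06). The chains of C1q were lower as well, with C1qb at 6.74, 8.14 and 6.54 CPM against 72.4, 46.7 and 104 CPM and C1qc at 3.17, 3.39 and 3.27 CPM against 65.1, 40.3 and 69.5 CPM.

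Beside C1q, markers of splenic macrophages were mostly lower in monocytes. Of its 12 members, which include C1qa, C1qb and C1qc, 9 were lower in monocytes, 1 (Axl) was higher and 2 were not past the threshold, beside 26.1% of all genes lower. Axl was not past it without CD4+ DC replicate 1 or 2, or without monocyte replicate 1 or 3. Nor was it with monocyte run 1 alone (0.51, adjusted p = 0.0837) or with a replicate block (0.59, adjusted p = 0.0523). The summed level of the 12 members was 170 to 189 CPM in monocytes and 972 to 1248 CPM in CD4+ DCs. Vcam1, an adhesion molecule, was at 4.75, 9.203 and 9.68 CPM against 334, 349.9 and 329 CPM, and Slc40a1, the iron exporter ferroportin, at 8.72, 6.39 and 9.28 CPM against 327, 486 and 545 CPM. Defining genes of red pulp macrophages were not past the threshold, Cd163 at 3.76, 2.62 and 3.14 CPM against 4.24, 3.19 and 5.62 CPM and Spic at 17.8, 43.1 and 15.7 CPM against 28.7, 18.3 and 24.6 CPM. The part of macrophages in the C1q values was not tested.

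Receptors for attractants were higher in monocytes for 10 of 22 members, beside 23.3% of all genes, and lower for 6, a share near the 26.1% of all genes. Cx3cr1, the fractalkine receptor, was at 513, 499 and 565 CPM against 11.8, 10.8 and 25.5 CPM (log2 fold change 5.04, SE 0.33, adjusted p = 1e-07). S1pr5 was at 90.7, 91.5 and 82.4 CPM against 1.23, 3.903 and 0.176 CPM (log2 fold change 5.65, SE 0.51, adjusted p = 1.48e-06). C5ar1, the receptor for the complement fragment C5a, was at 48.9, 63.6 and 58.7 CPM against 0.683, 0 and 1.405 CPM. Ltb4r1, the leukotriene B4 receptor, went with them, at 108, 79.8 and 131 CPM against 6.56, 6.74 and 5.97 CPM, and Ccr1 was at 14.3, 33.8 and 29.6 CPM in monocytes against at most 0.547 CPM in CD4+ DCs. Lower in monocytes, besides Ccr7 and Gpr183, was Ccr6, at 0.198, 0.0969 and 0.654 CPM against 33.8, 26.8 and 22.5 CPM (log2 fold change -6.41, SE 0.51, adjusted p = 4.61e-07).

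Growth factor and cytokine receptors were higher in monocytes for 15 of 25 members and lower for 4, Flt3, Kit, Il21r and Il1r2. Of these 4, Il1r2 was not past the threshold without CD4+ DC replicate 1 (-1.25, adjusted p = 0.0666) or without monocyte replicate 2 (-1.30, adjusted p = 0.052). Nor was it with monocyte run 1 alone (-1.48, adjusted p = 0.0519). Csf3r, the receptor for G-CSF, was at 388, 370.1 and 398 CPM against 17.1, 34.2 and 20.5 CPM (log2 fold change 4.01, SE 0.28, adjusted p = 1.42e-07). Csf2ra, the alpha chain of the GM-CSF receptor, was at 1004, 850.3 and 963 CPM against 118, 173 and 166 CPM, while the beta chain Csf2rb was 1.72-fold higher but not past the threshold without monocyte replicate 2 (0.67, adjusted p = 0.0675). Together with Csf1r, receptors for all 3 of these colony-stimulating factors were higher in monocytes. Tnfrsf1b, the TNF receptor TNFR2, was at 1980.0, 2289 and 2129 CPM against 156, 218 and 237 CPM (log2 fold change 3.39, SE 0.24, adjusted p = 2.11e-07). The receptor chains Il10ra, for IL-10, at 790.03, 798 and 840.2 CPM against 704, 1161 and 713 CPM, and Il4ra, for IL-4, at 214, 302 and 253 CPM against 138, 271 and 212 CPM, overlapped. Il10rb, the other IL-10 receptor chain, did not overlap, at 133, 159 and 137 CPM against 122, 85.9 and 101 CPM, and was not past the threshold (log2 fold change 0.48, SE 0.20, adjusted p = 0.0701), but passed it in the fit of all 15 libraries (0.55, adjusted p = 0.0201), with limma on log2(TPM + 1) (0.61, adjusted p = 0.05 after rounding) and without CD4+ DC replicate 1 (0.62, adjusted p = 0.0288).

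Of 27 cytokines and chemokines, 11 were higher in monocytes, 9 lower and 7 not past the threshold, beside 23.3% higher and 26.1% lower over all genes. Ccl6, a chemokine of myeloid cells, was at 660.3, 722 and 761 CPM against 27.2, 10.999 and 17.9 CPM (log2 fold change 5.24, SE 0.32, adjusted p = 5.55e-08), and its relative Ccl9 at 407, 452 and 513 CPM against 30.6, 38.5 and 24.9 CPM. Ccl4 and Ccl5, chemokines that attract T cells and monocytes, were lower in monocytes, Ccl5 further, at 10.1, 6.1997 and 4.58 CPM against 127, 92.96 and 278 CPM (log2 fold change -4.6, SE 0.43, adjusted p = 2.17e-06). Ccl3 was lower at 21.6, 30.9 and 34.4 CPM against 51.1, 40.4 and 83.1 CPM (log2 fold change -1.0, SE 0.29, adjusted p = 0.0126), but was not past the threshold without CD4+ DC replicate 3 (-0.63, adjusted p = 0.0519), without monocyte replicate 1 (-0.83, adjusted p = 0.0661) or by limma (-0.83, adjusted p = 0.0733). Il12b, the p40 chain of IL-12 and IL-23, had no count in monocytes and 6.698, 13.3 and 14.05 CPM in CD4+ DCs, at least 87.1-fold higher there. Of the inflammatory cytokines, Il6 was at 1.39, 2.23 and 2.62 CPM against 0.410, 0 and 0.176 CPM and Tnf at 4.56, 3.49 and 1.96 CPM against 6.56, 14.2 and 21.8 CPM. Ltb, which builds lymphoid tissue, was at 10.5, 9.01 and 6.54 CPM against 266, 144 and 233 CPM (log2 fold change -4.63, SE 0.30, adjusted p = 9.38e-08), and Il1b overlapped, at 359.8, 332 and 288 CPM against 192, 302 and 425 CPM.

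Genes of granule proteins had the highest median log2 fold change of the 19 lists plotted together, 7.66 (6.00 with the 8 members of at most 3 counts in CD4+ DCs or monocytes set to their bound or count ratio), with 17 of 19 higher in monocytes, 1 lower and 1 not past the threshold. Besides Lyz2, Chil3 and Hp, genes of neutrophil secondary granules were found in every monocyte library. Ngp was at 83.4, 80.2 and 134 CPM against 0.273, 0 and 0.351 CPM (log2 fold change 8.74, SE 0.48, adjusted p = 2.32e-08), Ltf (lactoferrin) at 49.1, 42.3 and 57.9 CPM against 0, 0 and 0.702 CPM and Camp (cathelicidin) at 24.6, 16.1 and 35.3 CPM against 0.137, 0 and 0.176 CPM. Mmp8, neutrophil collagenase, was at 87.6, 83.99 and 117 CPM in monocytes and had no count in CD4+ DCs, at least 597-fold higher. Mmp9, gelatinase B, which is stored in neutrophil granules too, ran the other way. It had no count in any monocyte library and 25.2, 85.3 and 85.5 CPM in CD4+ DCs (adjusted p = 1.7e-06), at least 501-fold higher there. Subunits of the phagocyte oxidase were less far apart, with Cybb at 1983, 1819 and 1925 CPM against 346, 359 and 411 CPM, and Cyba overlapped.

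Some other neutrophil genes were low in monocytes and others were not. Ly6g reached at most 0.396 CPM, Cxcr2 0.969 CPM, Retnlg 0.387 CPM and Stfa1 0.131 CPM in any monocyte library. Csf3r, a receptor that neutrophils carry as well, was at 388, 370.1 and 398 CPM in the same libraries, and S100a8 and S100a9, abundant in neutrophils too, are given above. The whole neutrophil marker list summed to 243 to 380 CPM in monocytes and 26.9 to 86.8 CPM in CD4+ DCs, with 6 of 7 tested members higher in monocytes and Mmp9 lower. The part of neutrophils in these values was not tested.

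Promoters of 3 of these granule genes are shown as examples, picked from those that hold letters known from C/EBP sites. A match of letters is not evidence of binding, and the part of C/EBP factors in the levels of these genes was not tested. The letters TTGCNNAA, with N for any base, were searched on both strands and found in 6 of the 14 granule genes that were higher and had an entry, beside 10.8% of all promoters. Lyz1, S100a9 and Lcn2 are the others that held it, and Lyz2, S100a8, Camp and Chil3 are among those that did not. The matches, in capitals, overlap no other motif searched here. The regions are chr9:7558179-7558478, plus strand (Mmp8), chr9:110419558-110419857, plus strand (Ngp, with a pair of matches) and chr9:111019042-111019341, plus strand (Ltf), from RefSeq, GRCm38.p6.
Mmp8: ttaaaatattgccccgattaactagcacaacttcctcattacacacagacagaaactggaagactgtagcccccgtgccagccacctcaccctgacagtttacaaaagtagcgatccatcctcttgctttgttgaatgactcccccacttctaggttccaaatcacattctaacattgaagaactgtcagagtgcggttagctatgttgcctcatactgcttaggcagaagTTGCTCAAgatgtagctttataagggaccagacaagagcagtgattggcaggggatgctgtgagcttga
Ngp: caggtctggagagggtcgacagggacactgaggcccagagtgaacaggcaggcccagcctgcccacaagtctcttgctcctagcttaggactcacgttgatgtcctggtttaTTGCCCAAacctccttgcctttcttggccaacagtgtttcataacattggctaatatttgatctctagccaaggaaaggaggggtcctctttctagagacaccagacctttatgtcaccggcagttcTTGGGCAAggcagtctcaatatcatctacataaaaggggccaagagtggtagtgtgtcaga
Ltf: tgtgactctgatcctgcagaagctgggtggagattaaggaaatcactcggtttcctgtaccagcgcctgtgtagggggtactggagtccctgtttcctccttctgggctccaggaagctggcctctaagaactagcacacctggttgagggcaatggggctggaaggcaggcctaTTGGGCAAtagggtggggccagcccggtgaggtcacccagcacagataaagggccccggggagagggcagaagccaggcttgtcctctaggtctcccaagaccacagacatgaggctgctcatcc

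Integrins and other adhesion genes were higher in monocytes for 13 of 21 members and lower for 4, counts that again include Itgam (higher) and Itgax (lower) of the sort. Itgal, the alpha chain of LFA-1, was at 1051, 1282 and 993 CPM against 168, 231 and 141 CPM (log2 fold change 2.62, SE 0.24, adjusted p = 2e-06). Itga1, a collagen-binding chain, was at 37.8, 25.4 and 30.99 CPM in monocytes against a total of 2 counts in CD4+ DCs. Itgb5 was at 176, 243 and 209 CPM against 19.5, 23.8 and 23.7 CPM (log2 fold change 3.23, SE 0.22, adjusted p = 1.55e-07). Each of these was higher in all 3 monocyte libraries. Pecam1 (CD31) was lower in monocytes, at 11.7, 19.9 and 10.6 CPM against 86.7, 85.9 and 90.4 CPM, and so was the tetraspanin Cd9, at 22.8, 20.1 and 16.2 CPM against 195, 237 and 119 CPM.

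Of 16 Notch pathway genes, 7 were higher in monocytes, beside 23.3% of all genes, 4 were lower, a share near the 26.1% of all genes, and 5 were not past the threshold. Dtx1 (Deltex 1), a target of Notch, was at 0.198, 0.0969 and 0 CPM against 342, 272 and 233 CPM (adjusted p = 3.97e-09), a ratio of 3249 (95% Poisson interval 899 to 26830) over 2 counts in monocytes. Other genes that Notch is known to induce went the other way, Hes1 at 50.9, 66.7 and 49.6 CPM against 18.6, 15.4 and 25.6 CPM (log2 fold change 1.49, SE 0.26, adjusted p = 0.000435) and Nrarp at 10.9, 15.02 and 10.98 CPM against 0.683, 2.84 and 3.69 CPM (log2 fold change 2.39, SE 0.50, adjusted p = 0.00153). Among receptors, Notch2, on which splenic DC2 depend, overlapped at 106, 80.98 and 96.5 CPM against 71.8, 84.3 and 59.4 CPM, although without CD4+ DC replicate 2 it was past the threshold at 0.55 (adjusted p = 0.0367). Notch1 was higher in monocytes at 63.4, 48.8 and 64.1 CPM against 3.55, 3.903 and 1.76 CPM (log2 fold change 4.24, SE 0.33, adjusted p = 3.56e-07). The mediator Rbpj was lower in monocytes, at 94.7, 76.6 and 97.4 CPM against 137, 269 and 183 CPM (log2 fold change -1.13, SE 0.25, adjusted p = 0.00233). The ligand Jag1 was lower as well, at 6.54, 7.27 and 2.48 CPM against 43.2, 42.4 and 50.05 CPM.

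Genes of DNA replication and mitosis were lower in monocytes almost throughout. Of 30 on the cell cycle list, 29 were lower and 1 was higher, with no overlap between groups for any of them, beside 26.1% of all genes called lower and 30.1% that lay below without overlap. The median log2 fold change was -3.53. Mki67, the proliferation marker Ki-67, was at 11.5, 9.01 and 11.2 CPM against 211, 185 and 262 CPM (log2 fold change -4.38, SE 0.24, adjusted p = 2.62e-08). Top2a, topoisomerase II, was at 4.56, 5.23 and 8.37 CPM against 260.1, 236 and 355 CPM (log2 fold change -5.53, SE 0.30, adjusted p = 2.22e-08), and Rrm2, which makes deoxynucleotides, at 6.74, 3.49 and 4.18 CPM against 275, 371 and 329 CPM (log2 fold change -6.12, SE 0.30, adjusted p = 9.76e-09). Mcm6, a subunit of the replicative helicase, was at 23.8, 18.8 and 23.02 CPM against 178, 170.3 and 168 CPM, and Tk1 was lower by least, at 26.9, 16.9 and 20.1 CPM against 48.1, 55.4 and 37.1 CPM (log2 fold change -1.14, SE 0.26, adjusted p = 0.00304). The D-type cyclins were divided between the cells. Ccnd1 was at 2.18, 2.91 and 1.6999 CPM against 172, 192 and 200.02 CPM (log2 fold change -6.34, SE 0.28, adjusted p = 5.79e-09) and Ccnd2 at 0.198, 3.29 and 2.09 CPM against 90.8, 65.6 and 90.8 CPM (log2 fold change -5.31, SE 0.46, adjusted p = 1.11e-06). Ccnd3, the 1 gene of the list that was higher in monocytes, was at 445, 506 and 425 CPM against 284, 275 and 126 CPM (log2 fold change 1.01, SE 0.28, adjusted p = 0.00921).

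In the promoters of the cell cycle list the letters GATTGG, searched above for class II, were found in 15 of the 23 genes that were lower and had an entry (65.2%, beside 16.1% of all promoters). The letters GCGGGAA, known from sites of E2F factors and searched on both strands, were found in 4 of the 23 (17.4%, beside 4.6% of all promoters).

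Erythroid genes were likewise higher in sum in CD4+ DCs, at 39.2 to 254 CPM there and 4.07 to 5.75 CPM in monocytes. Hbb-bs, a globin, was at 132, 19.7 and 63.6 CPM in CD4+ DCs, while Klf1, which defines erythroid precursors, was at 0 there. Within CD4+ DCs the erythroid sum was highest in replicate 1 and lowest in replicate 2, while the summed level of the cell cycle list was lowest in replicate 1, at 2930 CPM, beside 3296 and 3363 CPM in replicates 2 and 3. The part of erythroid cells in the cell cycle values was not tested.

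Interferon-stimulated genes were higher in monocytes for 16 of 26 members and lower for none, with 10 not past the threshold (median log2 fold change 1.04). Oas3, of the enzymes that activate RNase L, was at 180.1, 171 and 212 CPM against 31.7, 20.05 and 23.2 CPM (log2 fold change 2.90, SE 0.24, adjusted p = 5.78e-07). Bst2 (tetherin) was at 78.8, 89.4 and 94.3 CPM against 16.4, 4.26 and 14.05 CPM (log2 fold change 2.91, SE 0.37, adjusted p = 3.38e-05). Irf7, the factor that amplifies interferon, was at 1263, 1026 and 1383 CPM against 472, 573 and 650.1 CPM (log2 fold change 1.12, SE 0.22, adjusted p = 0.00107). The 3 Ifit genes, Isg15 and Stat2 were not past the threshold. Isg15 was at 63.99, 56.96 and 67.6 CPM against 36.6, 34.6 and 85.2 CPM, and Ifit1 at 55.7, 31.1 and 55.4 CPM against 35.3, 34.6 and 70.9 CPM. For these 5 genes replicate 3 was the highest of the CD4+ DC libraries. Without that library Isg15, Ifit3 and Irf9 were past the threshold as well, all higher in monocytes.

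An interferon response element, taken as the letters GAAA, any 2 bases and again GAAA and searched on both strands, was found in the promoter of 6 of 11 members that were higher and had an entry, and in 5 of 8 that were not past the threshold, beside 3.44% of all promoters. Both kinds of member thus held these letters. Promoters of Oas1a, at 265, 284 and 305 CPM against 141, 181 and 119 CPM, and Rsad2 (viperin), at 66.4, 38.8 and 73.5 CPM against 15.2, 7.096 and 24.4 CPM, are printed as examples with the matches in capitals. Those of Oas1a overlap each other, and that of Rsad2 is on the other strand. They lie at chr5:120907476-120907775, minus strand (Oas1a) and chr12:26456403-26456702, minus strand (Rsad2), from RefSeq, GRCm38.p6.
Oas1a: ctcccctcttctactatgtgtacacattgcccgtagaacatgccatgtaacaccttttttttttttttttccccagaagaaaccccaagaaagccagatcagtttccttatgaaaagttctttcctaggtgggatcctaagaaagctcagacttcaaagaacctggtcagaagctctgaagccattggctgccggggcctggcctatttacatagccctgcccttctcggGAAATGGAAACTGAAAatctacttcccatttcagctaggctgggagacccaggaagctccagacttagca
Rsad2: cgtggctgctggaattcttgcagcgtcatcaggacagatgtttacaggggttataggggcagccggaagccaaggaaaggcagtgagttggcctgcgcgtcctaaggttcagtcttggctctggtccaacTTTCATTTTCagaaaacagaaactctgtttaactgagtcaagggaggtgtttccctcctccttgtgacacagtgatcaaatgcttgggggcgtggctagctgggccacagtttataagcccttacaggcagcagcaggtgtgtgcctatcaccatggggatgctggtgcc

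Glycolytic genes were higher in monocytes for 13 of 20 members and lower for 1 (median log2 fold change 1.21). Eno1 (enolase) was at 360.1, 417 and 426 CPM against 125, 96.5 and 110.1 CPM (log2 fold change 1.86, SE 0.20, adjusted p = 7.68e-06), and the myeloid hexokinase Hk3 at 78.4, 64.2 and 84.9 CPM against 9.16, 2.66 and 9.66 CPM (log2 fold change 3.39, SE 0.38, adjusted p = 9.23e-06). Slc16a3, which exports lactate, was at 137, 119.7 and 165 CPM against 6.698, 0.887 and 9.48 CPM (log2 fold change 4.62, SE 0.49, adjusted p = 6.26e-06). The glucose transporters went in opposite directions. Slc2a3 (GLUT3) was lower in monocytes, at 3.17, 1.84 and 2.88 CPM against 95.003, 138 and 161 CPM (log2 fold change -5.68, SE 0.32, adjusted p = 2.96e-08), whereas Slc2a1 (GLUT1) was higher, at 20.6, 23.7 and 25.9 CPM against 9.57, 6.92 and 5.795 CPM (log2 fold change 1.65, SE 0.30, adjusted p = 0.000588). Ldhb, a subunit of lactate dehydrogenase, was higher in monocytes, at 46.6, 40.1 and 41.5 CPM against 2.597, 3.55 and 3.69 CPM, and the other subunit, Ldha, overlapped, at 289, 379.5 and 356 CPM against 553, 595 and 292 CPM. Without CD4+ DC replicate 3 Ldha was past the threshold at -0.73 (adjusted p = 0.0079), and 15 members of the list were higher and 2 lower.

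**Figure D3:**
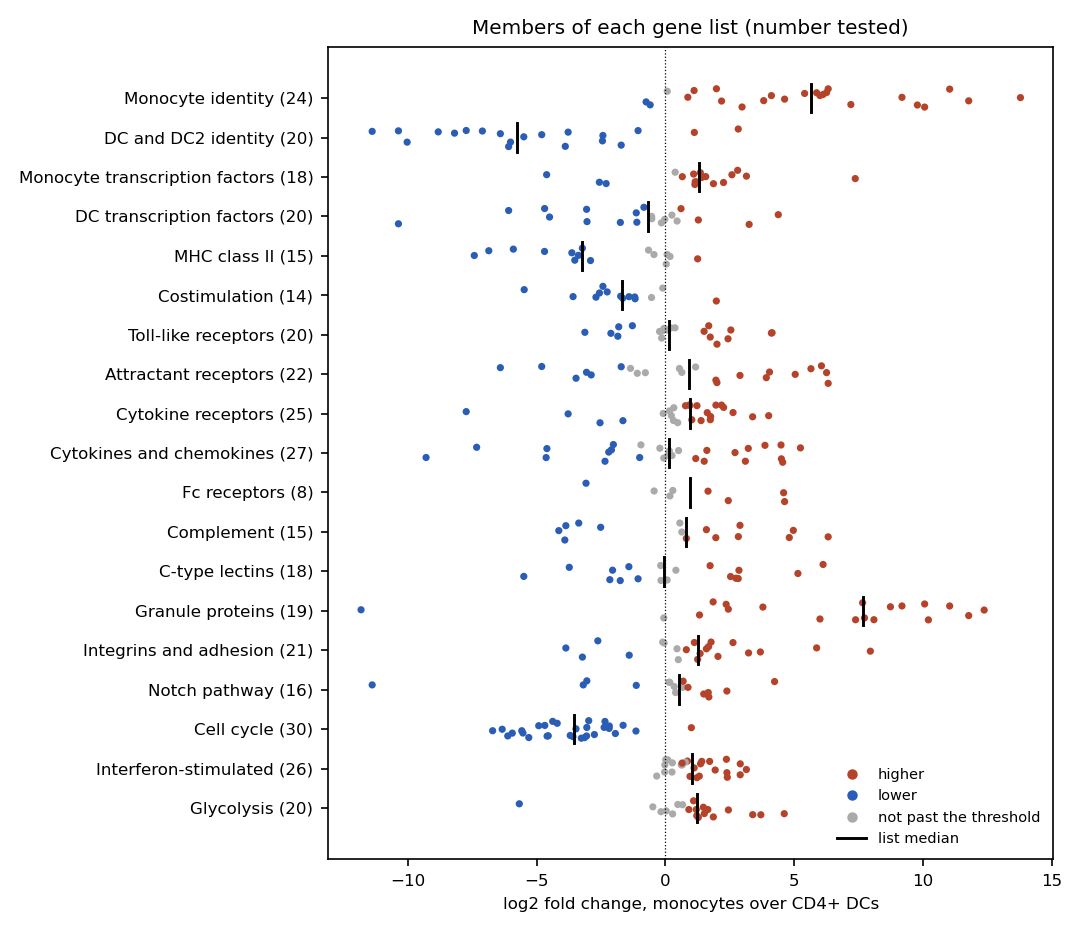
Log2 fold change (monocytes over CD4+ DCs, horizontal axis) of every tested member of 19 gene lists, with red points for members higher in monocytes, blue for members lower, grey for members not past the threshold and a bar at the list median. The cell cycle list lies to the left of 0 but for Ccnd3, and granule proteins lie to the right but for Mmp9 and Cyba.

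Several of the lists above held paralogs or genes of a shared class that went in opposite directions, and 10 pairs of this kind, chosen after their values had been seen, are set side by side. Mmp8 and Mmp9 had no count in the group where the other was found. Among the other pairs, both members were past the threshold in opposite directions in 8, while in the remaining pair Irf8 was higher and Irf4 was not past it. Itgax, paired with Itgal, is a gene of the sort, so its direction is not a result. Pairing genes is a way to show values and carries no test of its own.

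**Figure D4:**
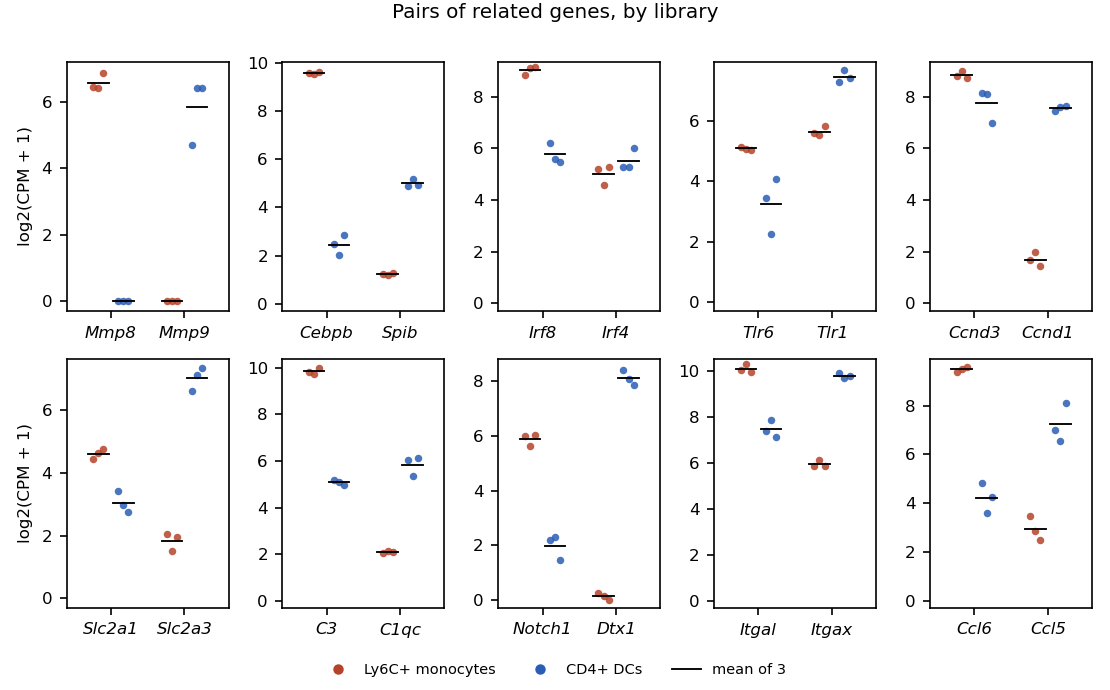
Level of 10 pairs of related genes in each library, as log2(CPM + 1), with red points for monocytes, blue points for CD4+ DCs and a bar at the mean of 3. In 9 pairs the left gene is higher in monocytes and the right gene in CD4+ DCs, and the libraries of the 2 groups do not overlap; Irf4 is the exception.

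Markers of other cells that a sort could hold were read in all 6 libraries. Those of Ly6C-low monocytes, the patrolling cells that derive from Ly6C+ monocytes, were higher in the sorted monocytes for 9 of 10 members, with a summed level of 4400 to 4739 CPM against 1110 to 1592 CPM in CD4+ DCs. Among them Ace, angiotensin-converting enzyme, was at 861, 1207 and 726 CPM against 32.3, 92.6 and 36 CPM (log2 fold change 4.12, SE 0.40, adjusted p = 2.69e-06). Nr4a1, the factor that those cells require, was at 2439, 2264 and 2486 CPM against 869.6, 1237 and 957 CPM. The same libraries held Ly6c2 and Ccr2 at the levels given above, and the share of Ly6C-low cells in them was not tested.

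DC1 markers were lower in monocytes for 7 of 7 tested members, summing to 198 to 207 CPM in monocytes and 774 to 1111 CPM in CD4+ DCs. Most of it was Wdfy4, at 631, 781 and 979 CPM in CD4+ DCs, while the defining marker Xcr1 was at 3.69, 6.56 and 1.405 CPM and Clec9a at 9.43, 7.63 and 6.498 CPM there. B cell markers summed to 328 to 422 CPM in monocytes and 566 to 746 CPM in CD4+ DCs, with Ighm at 386, 279 and 383 CPM against 285, 383 and 394 CPM and Cd22 at 5.35, 25.1 and 9.68 CPM against 197, 270.2 and 205 CPM. The lists of T cells, NK cells and platelets stayed at or under 15.7 CPM in sum in every library. The plasmacytoid DC list was at 80.4 to 96.5 CPM in monocytes and 101 to 121 CPM in CD4+ DCs, with 3 of 4 tested members lower in monocytes. Of these, Ly6d (log2 fold change -1.58, adjusted p = 0.0396) was not past the threshold in the fit of all 15 libraries (-1.52, adjusted p = 0.244). Nor was it with a replicate block or with monocyte run 2 alone. Leaving out CD4+ DC replicate 1 or 2, or monocyte replicate 1 or 2, ended the call as well. The most abundant member, Tcf4, was not past the threshold, at 77.9, 91.2 and 93.2 CPM against 79.6, 98.3 and 89.03 CPM, and Ccr9 was lower, at 1.19, 2.32 and 0.915 CPM against 12.3, 16.5 and 5.44 CPM (log2 fold change -2.88, SE 0.52, adjusted p = 0.000547). Siglech, which defines those cells, was at 0 in monocytes and at 6.29, 0.887 and 0.351 CPM in CD4+ DCs.

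**Figure D5:**
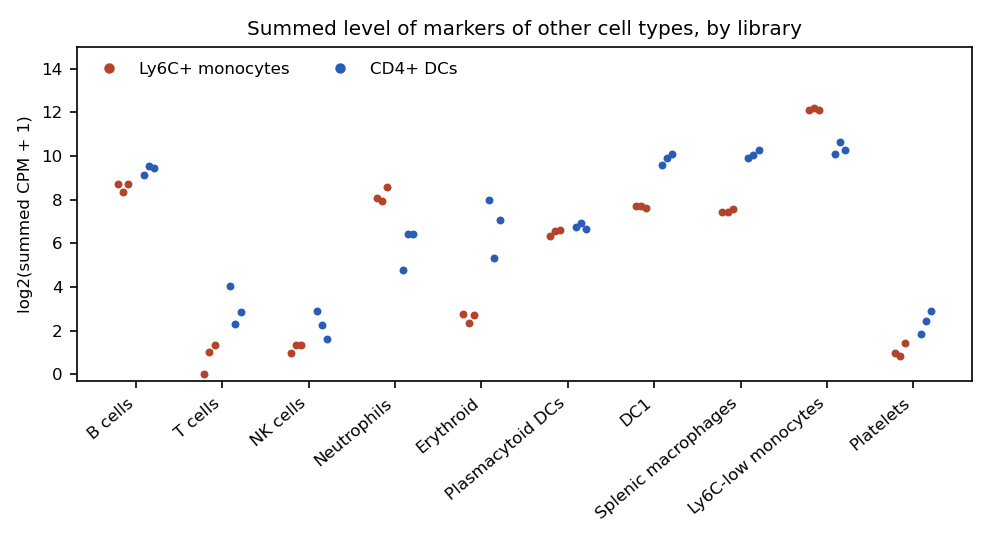
Summed level of the markers of 10 other cell types in each library, as log2(summed CPM + 1), with red points for the 3 monocyte libraries and blue points for the 3 CD4+ DC libraries. Of these lists, those of neutrophils and of Ly6C-low monocytes are higher in monocytes.

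Some of the genes that set CD4+ DCs apart from monocytes are common to splenic DCs and others are not, which the splenic CD8+ DCs (DC1) of the same series show. Their levels and their test against CD4+ DCs come from a fit of all 15 libraries and share the CD4+ DC libraries with the comparison above, so the values are given side by side. Kit was at 399, 400.3 and 402 CPM in CD8+ DCs, with a log2 difference from CD4+ DCs of -0.57 (adjusted p = 0.0757). Zbtb46 was at 310.3, 364 and 344 CPM, with a difference of -0.38 (adjusted p = 0.125). Mki67 was at 147, 209.7 and 244 CPM, with a difference of -0.06 (adjusted p = 0.884). These 3 genes were thus far above the monocytes in CD8+ DCs as well.

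Genes of the DC2 list differed among themselves in CD8+ DCs. Dtx1 was at 25.6, 0.809 and 1.15 CPM in CD8+ DCs, with a log2 difference from CD4+ DCs of -4.86 (adjusted p = 0.000114). Tbx21 was at 3.47, 0.809 and 2.06 CPM, with a difference of -5.17 (adjusted p = 1.59e-07). Kmo, on the same list, was at 298, 328 and 258 CPM, with a difference of -0.20 that was not past the threshold (adjusted p = 0.59), and neither was that of Dpp4, -0.22 (adjusted p = 0.452). Mmp9, of the granule list, was at 0, 0 and 0 CPM (adjusted p = 4.59e-06). Relb lay between, at 164, 169.7 and 152 CPM in CD8+ DCs, with a difference of -2.53 (adjusted p = 2.13e-07). Cebpb was low in both DCs, at 1.91, 4.59 and 2.63 CPM in CD8+ DCs, with a difference of -0.54 (adjusted p = 0.379).

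Other genes that were higher in monocytes than in CD4+ DCs were higher in CD8+ DCs too. Irf8 was at 1963, 2385 and 3108 CPM in CD8+ DCs, above the monocytes and the CD4+ DCs in every library (5.58 over CD4+ DCs, adjusted p = 9.37e-10). Ccr2 was at 48.8, 63.3 and 61.04 CPM in CD8+ DCs (1.77, adjusted p = 7.08e-05), which stayed below its level in monocytes. Csf1r went the other way, at 138, 91.1 and 61.3 CPM in CD8+ DCs (-2.42, adjusted p = 3.49e-06), so that CD4+ DCs lay between CD8+ DCs and monocytes in the level of this gene. Vcam1 was lower in CD8+ than in CD4+ DCs, at 147, 116 and 103 CPM (-1.4, adjusted p = 8.03e-05), and Slc40a1 at 145, 105 and 76.3 CPM (-1.99, adjusted p = 0.000443), yet both were above the monocytes in every library.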

How the data were processed

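RNA of sorted cells was amplified from poly-A RNA and sequenced on an Ion Torrent instrument, and the authors aligned it to mm10 with STAR 2.4.0j and assigned the reads that mapped once to genes of Ensembl 75, without strand, using featureCounts (Subread 1.5.2). The deposited counts and TPM of 15 libraries were used; the sum of the deposited counts by run equalled the deposited counts in 15 of 15 libraries, and TPM recomputed from them differed by at most 9.6e-10. Of 38924 identifiers, 37607 (96.6%) had a symbol.

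Counts of the 6 libraries were tested with edgeR 4.0.16 in R 4.3.3 (TMM, quasi-likelihood, adjusted p below 0.05), after dropping genes that did not exceed 1 CPM in 3 libraries or more. A prior count of 2 was used only for the log2 CPM behind the differences and correlations between libraries, and the test kept the default of edgeR. CPM use TMM library sizes. CD8+ DC values come from a fit of all 15 libraries. A group at 0 counts was set to a floor of 3, and 95% Poisson intervals cover counting error only. Genes were named by fold (10 per direction, mean of at least 10 CPM, no overlap), by TPM difference (5 per direction), as genes of the sort and as list members. Members and lists were chosen with earlier results of these data known. Some list members are counted but not reported here by name. Replicates are pools of 5 mice, and p values measure the spread between pools. Alternatives were RLE scaling, DESeq2 1.42.0, other filters, 1 run of each monocyte library, a replicate block, limma 3.58.1 on log2(TPM + 1), a log2 difference of at least 1, and leaving out each library.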

Additional observations from a re-analysis of the deposited data

How the results depend on the processing

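The number of genes past the threshold, 6279, lay between 4670 (a log2 difference of at least 1 also required) and 6947 (no filter on low counts) under the alternatives that kept all libraries. It was 6381 by DESeq2 and 5887 by limma on log2(TPM + 1), and every gene called in both had the same direction. Leaving out 1 library at a time gave 4796 to 6751 genes, 2265 to 3258 higher and 2531 to 3493 lower. On the TPM scale the median log2 fold change over all genes moved from -0.036 to 0.115, and the share of calls that were higher in monocytes from 47.2% to 54.4%. Of 396 genes described or listed, 319 were past the threshold. DESeq2 lost 1 of these calls, limma 4, the fit of all 15 libraries 7, and 1 run in place of both 5 in either case. Leaving out 1 library lost 18 without monocyte replicate 2, 14 and 9 without replicates 1 and 3, and 12, 7 and 4 without CD4+ DC replicates 1, 2 and 3, and it gained up to 11 calls. No gene whose values are given here changed sign past the threshold under any of these alternatives.

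Libraries with the same replicate number did not deviate together (correlations of -0.00886, -0.0322 and 0.0481 across genes). Such correlations cannot tell whether pools of the same number shared animals, since different cells of the same animals need not deviate together. With the replicate number as a block, 5946 genes were past the threshold, 2922 higher and 3024 lower, and of the described or listed genes S100a4, Ly6d and Axl were no longer among them while Ifit3, Irf9 and Eno3 were. Pools of 5 mice hide the spread between animals, 3 pools a group limit the precision, and 143 and 250 genes rest on a group with at most 3 counts.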
